A study of Mus musculus with 41 samples.

Results

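The 10 placental members of the mouse prolactin family described here are Prl3d1, Prl3b1, Prl2c2, Prl2c3, Prl7d1, Prl7a1, Prl4a1, Prl2a1, Prl5a1 and Prl8a9. They are 10 of the 22438 genes with a row in the ribosome footprint tables, and each matched 1 gene by its symbol. The members were chosen by their footprint levels in these same Hbs1l-/- and wild-type embryos, so their embryo values are a description and carry no test. Ribosome profiling sequences the short mRNA fragments that ribosomes protect, and a gene's level here is its number of fragments in the coding sequence, given as CPM (fragments per 1000000 of the library) unless a count is named. The embryo libraries came from whole E8.5 embryos that were Hbs1l-/- or wild type. The Hbs1l-/- embryos carried a constitutive deletion of exon 5 of Hbs1l, made by crossing a floxed allele to Sox2-Cre. Both groups were of the C57BL/6NJ strain per the labels, and each of the 3 replicates per genotype pooled 5 embryos. Per the study's methods the Hbs1l alleles, made on C57BL/6N, were backcrossed to mice with the n-Tr20 tRNA mutation of C57BL/6J, and they list the cKO cerebella and the control and knockout fibroblasts as homozygous for it. Whether the embryos and the control cerebella carry it is not given in the sources used here. Reference tissues were P14 cerebellum on C57BL/6J, with 3 mice carrying Atoh-Cre (Tg(Atoh1-Cre) in the methods) and a conditional Hbs1l knockout (deletion of the floxed allele in granule cell precursors, beside a null allele in all cells) and 3 Atoh-Cre mice with intact Hbs1l. The other reference was primary mouse embryonic fibroblasts (MEFs) of C57BL/6, in which a tamoxifen-inducible CAG-Cre ER was used to delete Hbs1l, Pelo or Upf2. Each fibroblast knockout had 3 footprint libraries beside 3 CAG-Cre ER controls of its own batch, and all cultures were given tamoxifen (4-OHT). RNA-seq was read from fibroblasts only, with 3 libraries per group except 2 for Pelo.

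The rodent prolactin family grew by local duplication into a cluster of genes for secreted hormones and cytokines, most of them made by the placenta and not by the pituitary. Trophoblast giant cells, the first trophoblast to invade the uterus, release placental lactogen I (Prl3d1) and the angiogenic proliferins (Prl2c genes) soon after implantation, and placental lactogen II (Prl3b1) replaces Prl3d1 after midgestation. Other members are made by the ectoplacental cone and the spongiotrophoblast that forms from it, and a few, such as Prl8a2, by the maternal decidua. Hbs1l encodes a GTPase that works with Pelo to release stalled ribosomes, and Upf2 encodes a factor of nonsense-mediated mRNA decay.

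All 10 members lie on chromosome 13 (GRCm38, Gencode M21). Prl2c3 (chr13:12790816-12800079, minus strand) and Prl2c2 (chr13:12996125-13005383, minus strand) stand apart with Prl2c5, and the other 22 listed family genes fill 1094 kb from Prl to Prl5a1. On the plus strand of this stretch lie Prl3d1 (chr13:27094190-27100258), Prl3b1 (chr13:27241847-27249683), Prl2a1 (chr13:27801654-27808729), Prl4a1 (chr13:28016212-28023559) and Prl5a1 (chr13:28142484-28151611). On its minus strand lie Prl8a9 (chr13:27557995-27564606), Prl7a1 (chr13:27633366-27642493) and Prl7d1 (chr13:27706337-27716736). How far a footprint can be given to 1 of these genes depends on their sequence. Of the 646 windows of 30 bases in the coding sequence of Prl2c3, 572 (88.5%) occur letter for letter in the transcripts of another gene, foremost Prl2c2, and for Prl2c2 the share is 94.6%. For Prl3d1 it is 74.6%, shared mainly with Prl3d3, whereas 5 of the 10 members (Prl3b1, Prl7a1, Prl7d1, Prl2a1 and Prl5a1) share no window and Prl8a9 and Prl4a1 share 0.143% and 1.53%. The coding sequences of Prl2c2 and Prl2c3 differ at 3 of 675 bases. The stretches below show why single counts within these 2 groups of near copies are uncertain: they are the 90 coding bases in which the copies differ most, sense strand, with capitals where at least 1 copy differs.
Prl2c3: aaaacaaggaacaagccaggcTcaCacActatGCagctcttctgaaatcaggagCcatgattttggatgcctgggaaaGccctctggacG
Prl2c2: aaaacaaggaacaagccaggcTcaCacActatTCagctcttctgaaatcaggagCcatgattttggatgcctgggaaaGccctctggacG
Prl2c5: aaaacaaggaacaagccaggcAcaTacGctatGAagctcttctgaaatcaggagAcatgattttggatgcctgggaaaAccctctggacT
The Prl2c stretch (8 differing bases) starts at coding base 287 of Prl2c3 and Prl2c2 and at base 296 of Prl2c5.
Prl3d1: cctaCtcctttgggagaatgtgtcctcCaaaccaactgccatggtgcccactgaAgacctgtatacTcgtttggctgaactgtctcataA
Prl3d2: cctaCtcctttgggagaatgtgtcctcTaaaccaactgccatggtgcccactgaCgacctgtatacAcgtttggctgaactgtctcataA
Prl3d3: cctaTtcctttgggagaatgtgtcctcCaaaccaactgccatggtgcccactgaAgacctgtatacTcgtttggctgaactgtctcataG
The Prl3d stretch (5 differing bases) covers coding bases 63 to 152 of all 3 genes, and the sequences are from Gencode M21 transcripts.

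Promoters were read from RefSeq (GRCm38.p6) as the 250 bases before and 50 bases after each gene's start, and 9 of the 10 members had one; Prl2c2 did not. They are shown for Prl3d1, Prl2c3 and Prl7a1, whose highest Hbs1l-/- library was 2.05, 2.38 and 1.27 times the lowest. Prl7d1 is shown too, as its footprints came almost wholly from 1 library although its promoter is 95.0% identical to that of Prl2c3. Capitals mark matches, on either strand, to a GATA motif (the letters GATA with A or T before and A or G after) or to an AP-1 motif (TGANTCA).
Prl3d1, chr13:27093939-27094238, plus strand: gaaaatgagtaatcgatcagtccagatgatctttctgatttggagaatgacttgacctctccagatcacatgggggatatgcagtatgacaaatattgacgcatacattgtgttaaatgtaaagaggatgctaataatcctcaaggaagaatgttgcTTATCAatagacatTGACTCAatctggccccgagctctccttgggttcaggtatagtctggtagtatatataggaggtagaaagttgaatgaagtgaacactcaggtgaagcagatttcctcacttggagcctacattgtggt
Prl7a1, chr13:27642444-27642743, minus strand: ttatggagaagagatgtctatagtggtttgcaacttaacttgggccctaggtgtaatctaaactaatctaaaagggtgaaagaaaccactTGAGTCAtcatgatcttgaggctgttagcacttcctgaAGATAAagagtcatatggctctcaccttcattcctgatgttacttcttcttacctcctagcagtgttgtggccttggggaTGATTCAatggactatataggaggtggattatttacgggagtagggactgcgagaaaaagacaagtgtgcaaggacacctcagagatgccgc
Prl2c3, chr13:12800030-12800329, minus strand: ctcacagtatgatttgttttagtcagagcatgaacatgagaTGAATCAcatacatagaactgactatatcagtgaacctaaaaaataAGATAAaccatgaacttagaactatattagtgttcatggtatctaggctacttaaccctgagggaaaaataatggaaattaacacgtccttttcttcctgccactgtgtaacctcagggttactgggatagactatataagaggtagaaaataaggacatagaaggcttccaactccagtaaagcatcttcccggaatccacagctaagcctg
Prl7d1, chr13:27716687-27716986, minus strand: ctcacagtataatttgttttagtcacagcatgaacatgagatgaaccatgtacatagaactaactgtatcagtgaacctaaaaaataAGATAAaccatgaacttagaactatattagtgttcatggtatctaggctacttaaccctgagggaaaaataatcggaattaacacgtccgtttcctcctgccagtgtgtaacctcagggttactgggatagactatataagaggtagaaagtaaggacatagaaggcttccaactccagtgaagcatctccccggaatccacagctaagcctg
Prl2c3 and Prl7d1 share the GATA match 163 bases upstream of the start, and the AP-1 match of Prl2c3, 209 bases upstream, has no counterpart in Prl7d1. In Prl3d1 the GATA and AP-1 matches begin 93 and 79 bases upstream, and Prl7a1 holds 1 GATA match and 2 AP-1 matches. None of these matches overlapped a match of the other motif. A GATA match was present in 5 of the 9 member promoters and in 29.8% of all 32851 promoters of the table, and an AP-1 match in 4 of the 9 and in 7.81% of all. Of the 21 promoters of listed family genes, members included, 15 held a GATA match and 8 an AP-1 match. Neither match is thus particular to the members. A match is a string of letters and not a measured binding site. Over all 36 pairs of member promoters, that of Prl2c3 and Prl7d1 included, the median identity was 53.2%. The coding sequences had a median identity of 55.2% over 45 pairs. The identity of unrelated sequences was not measured for comparison.

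The embryo libraries held 7298812, 4352873 and 2827743 coding fragments for Hbs1l-/- replicates 1 to 3, and between 2634480 and 4067319 for wild type. Hbs1l itself was at 2.88, 2.53 and 8.84 CPM in the Hbs1l-/- libraries against 48.7 to 57.7 in wild type. Several members were far higher in Hbs1l-/- replicate 3, the shallowest of the 3, than in the other Hbs1l-/- libraries, and their ratios of means are given with and without it. Footprints reflect mRNA abundance and ribosome load together, which cannot be told apart here because embryo RNA was not analysed, and in bulk tissue more cells of a type cannot be told apart from more RNA per cell.

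Placental lactogen I, the luteotropic hormone of early giant cells, was among the members with the most even levels across the Hbs1l-/- libraries. Prl3d1 had 81.4, 39.7 and 60.1 CPM in the 3 Hbs1l-/- libraries and 0.759, 3.44 and 3.07 CPM in wild type. The lowest Hbs1l-/- library therefore lay far above the highest wild-type library, and the ratio of means was 24.9 (60.4 ± 20.8 against 2.42 ± 1.45 CPM, SD, n = 3 each). Wild type rested on 2, 14 and 9 fragments, and the ratio of pooled counts was 24.9 with a 95% counting interval of 16.8 to 38.7. Prl3b1, its successor later in gestation, had 0 fragments in all 6 embryo libraries. At these depths a count of 0 allows up to 3 fragments per library, which is 0.411 to 1.14 CPM, well under the level of Prl3d1 in every Hbs1l-/- library.

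The proliferins, angiogenic cytokines of giant cells, followed Prl3d1. Prl2c3 had 44.5, 26.6 and 63.3 CPM in Hbs1l-/- and 1.14, 2.21 and 2.05 CPM in wild type, a 24.9-fold difference of means with no overlap. Its wild-type libraries had 3, 9 and 6 fragments, and the pooled ratio was 22.9 (95% counting interval 14.4 to 38.9). Prl2c2 was lower throughout, with 73, 30 and 61 fragments in the Hbs1l-/- libraries (from 6.89 to 21.6 CPM) and 1, 0 and 0 fragments in wild type. Its pooled ratio was 109 with a 95% counting interval of 19.3 to 4336, and the split between Prl2c2 and Prl2c3 is uncertain for the reason shown by their sequences. Prl7d1 encodes the proliferin-related protein, which opposes the proliferins on blood vessels. It behaved otherwise: it had 0.822, 1.38 and 53.8 CPM in Hbs1l-/- and 0, 0 and 1.36 CPM in wild type. The groups overlapped, 96.1% of its Hbs1l-/- signal was in replicate 3, and its ratio of means was 41.0 with that library and 2.42 without it (1.10 against 0.455 CPM).

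The remaining members are prolactin-like proteins. Prl7a1 had the highest mean of the members in both genotypes and the smallest spread between Hbs1l-/- libraries relative to its level, although Prl4a1 exceeded it in Hbs1l-/- replicate 3. It had 231, 199.9 and 253 CPM in Hbs1l-/- against 11.8, 20.7 and 12.95 CPM in wild type. Its counts were large (3275 and 153 fragments), and the pooled ratio of 14.2 had a 95% counting interval of 12.1 to 16.9. Intervals of this kind cover counting error only and leave out the spread between pools of embryos.

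Prl4a1, a cytokine that acts on natural killer cells of the decidua, had 27.0 and 24.6 CPM in replicates 1 and 2 of Hbs1l-/- but 422 CPM in replicate 3. Wild-type libraries had 2.28, 2.21 and 1.70 CPM. The ratio of means fell from 76.5 to 12.5 without replicate 3, and every Hbs1l-/- library was still above every wild-type library. Prl2a1 was alike, with 20.1, 4.36 and 211 CPM in Hbs1l-/- and 0.380, 0.492 and 0.682 CPM in wild type. Replicate 3 held 89.6% of its Hbs1l-/- signal, and the ratio of means was 151 with that library and 23.7 without it.

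Prl5a1 lay between these patterns: it had 20.4, 13.3 and 87.7 CPM in Hbs1l-/- and 0.759, 1.48 and 0.682 CPM in wild type, with 72.2% of the Hbs1l-/- signal in replicate 3. The groups did not overlap, and the ratio of means was 41.6 with replicate 3 and 17.4 without it. Wild type had 2, 6 and 2 fragments, and the pooled ratio was 30.3 (95% counting interval 16.3 to 63.6). Prl8a9 was the lowest member with any fragments. It had 0.274, 1.38 and 10.3 CPM in Hbs1l-/- and 0, 1.48 and 0 CPM in wild type, so the groups overlapped. Its ratio of means was 8.07 with replicate 3, which held 29 of its 37 Hbs1l-/- fragments, and 1.68 without it.

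**Figure D1:**
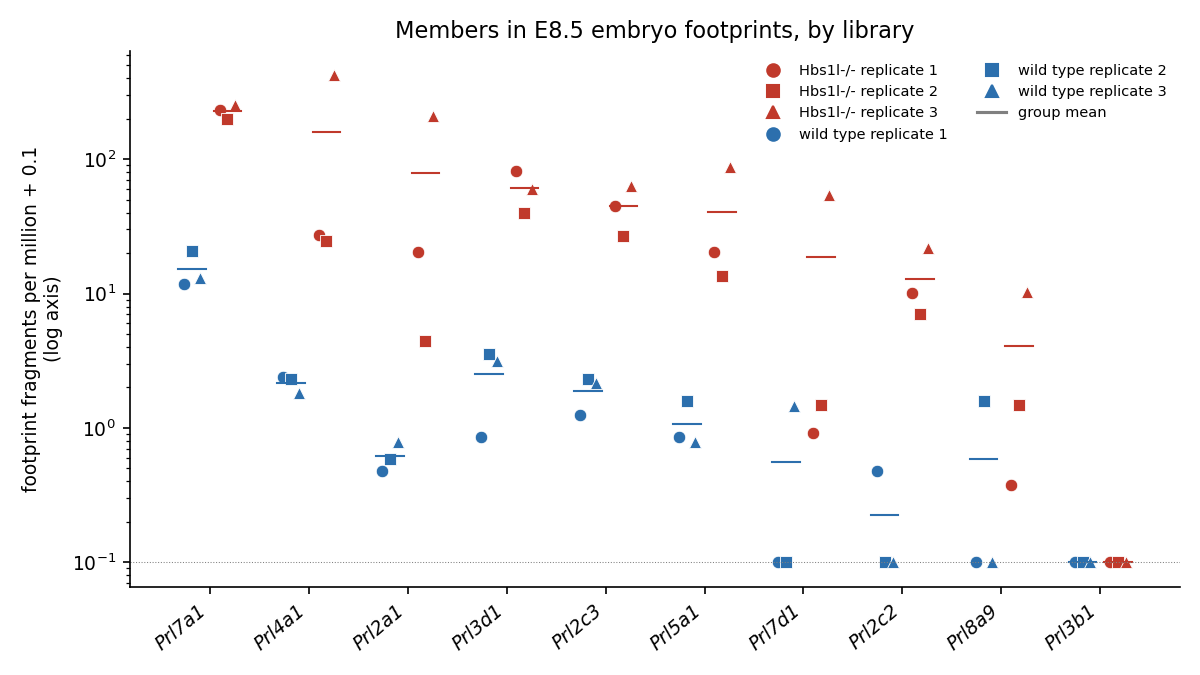
Footprint CPM plus 0.1 (log axis) of each member in the 3 Hbs1l-/- (red) and 3 wild-type (blue) E8.5 embryo libraries; symbols mark the replicate, short lines the group mean, and the dotted line a count of 0. The Hbs1l-/- libraries of Prl7a1 lie within 1.27 times of each other, whereas Hbs1l-/- replicate 3 stands above the others for Prl4a1, Prl2a1, Prl5a1, Prl7d1 and Prl8a9.

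In all, every Hbs1l-/- library was above every wild-type library for 7 of the 10 members (all but Prl3b1, Prl7d1 and Prl8a9), and the count was again 7 without Hbs1l-/- replicate 3. Among the 11416 genes that passed the low-count filter, 11.0% had every Hbs1l-/- library above every wild-type library. Of the members, 7 passed that filter. Among the 15 other family genes of the list, 7 also had every Hbs1l-/- library above every wild-type library. The trait is thus not particular to the members. As the embryo contrast chose the members, nothing is read from their count. Together the members made up 436, 318 and 1183 CPM of the Hbs1l-/- libraries and 17.5, 32.0 and 22.5 CPM of the wild-type libraries, which is a mean of 646 ± 469 against 23.97 ± 7.36 CPM (SD, n = 3 each) and a ratio of 26.9. Without replicate 3 the Hbs1l-/- mean was 377 CPM and the ratio 15.7.

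The members differed in how the Hbs1l-/- libraries shared their signal, and 2 patterns are told apart here after seeing the values. For Prl3d1, Prl7a1 and Prl2c3 replicate 3 held 33.2%, 37.0% and 47.1% of the sum over 3 libraries (named the even pattern here), and for Prl2c2 56.1%. For Prl5a1, Prl8a9, Prl4a1, Prl2a1 and Prl7d1 it held 72.2% to 96.1%. The highest Hbs1l-/- library was 1.27 times the lowest for Prl7a1 and 65.4 times the lowest for Prl7d1. Other family genes that were not members covered the same range, from Prl8a1 at 16.0% and Prl2c1 at 21.6% to Prl7c1 at 97.3% and Prl6a1 at 97.5%.

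**Figure D2:**
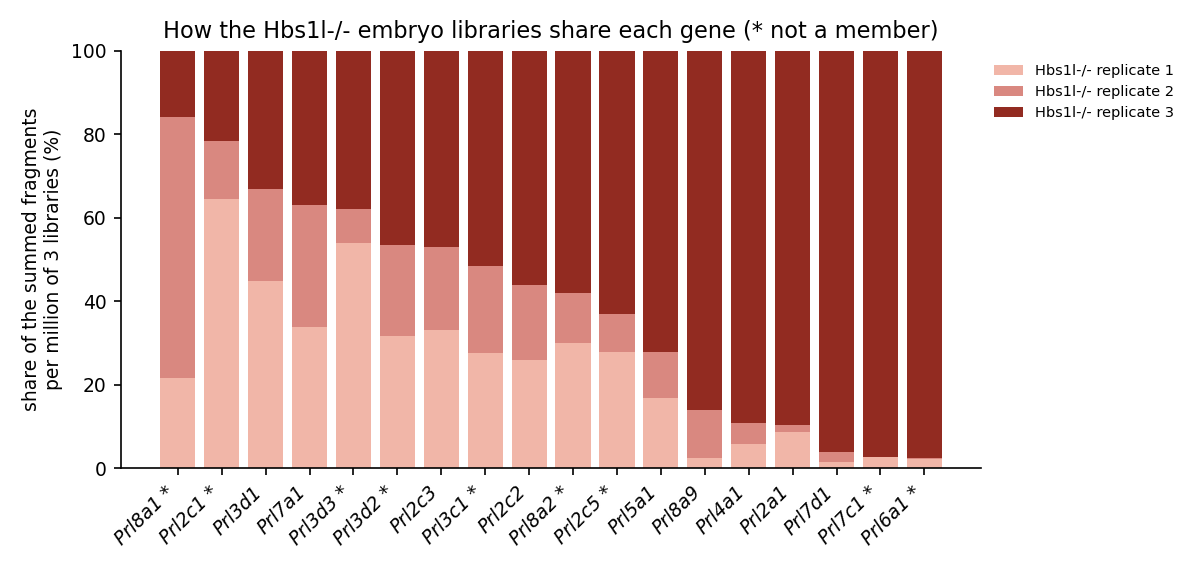
Share (%) of the summed CPM of the 3 Hbs1l-/- embryo libraries that each library holds, for family genes with at least 20 fragments in them; an asterisk marks genes that are not members. Genes are ordered by the share of replicate 3, from 16.0% for Prl8a1 to 97.5% for Prl6a1.

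Per kilobase of coding sequence, the members ranked in Hbs1l-/- embryos as Prl7a1 (mean of 285 CPM per kb), Prl4a1 (231), Prl2a1 (114), Prl3d1 (89.5), Prl2c3 (66.4), Prl5a1 (58.4), Prl7d1 (25.4), Prl2c2 (19.0) and Prl8a9 (5.47), with Prl3b1 at 0. The ranges of the 3 libraries overlapped for each of the 8 neighbouring pairs among the members with fragments, so no neighbours in this order were separated beyond their spread. The places of Prl4a1, Prl2a1 and Prl7d1 rest on replicate 3: in replicates 1 and 2 Prl4a1 (39.5 and 35.9 CPM per kb) and Prl2a1 (29.3 and 6.35) were below Prl3d1 (121 and 58.9) and Prl2c3 (66.0 and 39.5). Prl2a1 was in these replicates also below Prl5a1 (29.5 and 19.2). Prl7d1, at 1.12 and 1.88 CPM per kb there, was below Prl2c2 (14.8 and 10.2). In wild type Prl7a1 was also first, at 18.9 CPM per kb, followed by Prl3d1 at 3.59 and Prl4a1 at 3.02. On the map of the cluster, genes of both patterns lie side by side: Prl7a1 of the even pattern stands between Prl8a9 and Prl7d1, whose signal is mostly in replicate 3.

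**Figure D3:**
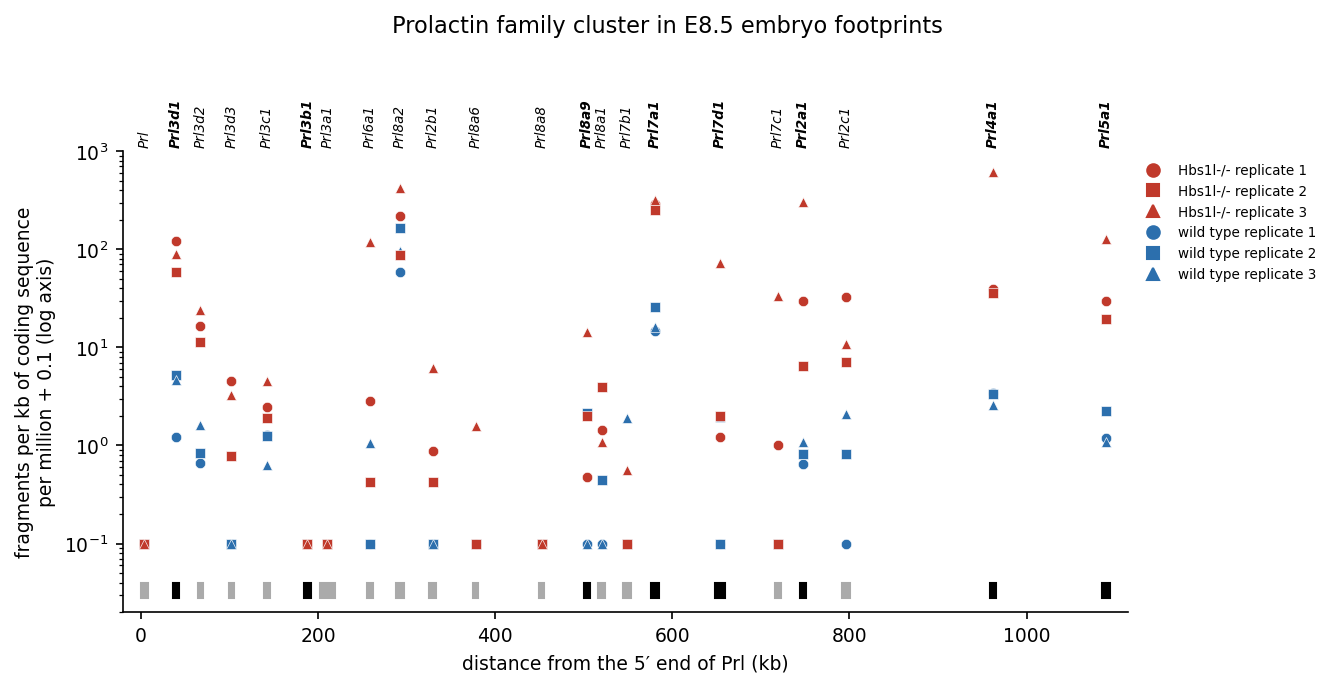
Main prolactin cluster drawn to scale, with distance from the 5′ end of Prl in kb on the x axis and, on the y axis, CPM per kb of coding sequence plus 0.1 (log axis) in each embryo library; boxes are genes, black for members. Hbs1l-/- libraries (red) reach 617 for Prl4a1 and 316 for Prl7a1, while Prl3b1 is at 0 in all 6 libraries and Prl8a2 is present in both genotypes.

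The other 15 family genes of the list, which are no members, were next compared. This comparison uses the same libraries that chose the members, and it is no independent support for their levels. Of the 15 genes, 4 passed the low-count filter, 3 were higher in Hbs1l-/- embryos at an adjusted p of at most 0.05 in edgeR and 1 did not pass, where 1.87% of all 11416 genes tested were called. All 3 (Prl3d2 and Prl2c1, with 6 wild-type fragments each over 3 libraries, and Prl2c5, with 2, 14 and 21) passed the filter through the group in which they are high, so nothing is read from the share called. DESeq2 called 2 of the 15, without Prl2c5. Prl3d2, a near copy of Prl3d1, had 11.1, 7.58 and 16.3 CPM in Hbs1l-/- and 0.380, 0.492 and 1.02 CPM in wild type (log2 fold change 4.15 ± 0.54 SE, adjusted p = 0.00176). With each library left out in turn the adjusted p was 0.000503 to 0.0336, under the same limits of filter and shared sequence.
Prl2c1 had 22.2, 4.82 and 7.43 CPM against 0, 0.492 and 1.36 CPM (log2 fold change 4.20 ± 0.76 SE, adjusted p = 0.0164). Prl2c5 had 27.9, 9.19 and 63.7 CPM against 0.759, 3.44 and 7.16 CPM (log2 fold change 3.09 ± 0.63 SE, adjusted p = 0.0268 in edgeR and 0.0576 in DESeq2). Both calls were lost when any 1 wild-type library was left out, with adjusted p from 0.0568 to 0.173, and that of Prl2c5 also without Hbs1l-/- replicate 3 (adjusted p = 0.0637). With each library left out in turn the log2 fold change ranged from 3.23 to 5.21 for Prl2c1 and from 2.32 to 3.82 for Prl2c5. These genes share 32.2% (Prl2c1), 48.7% (Prl2c5) and 71.7% (Prl3d2) of their 30-base windows with other genes, members included, so their counts are not independent of those of the members.

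Prl8a2, the decidual prolactin-related protein, was the most abundant family gene of wild-type embryos and did not pass the test. It had 157, 62.9 and 302 CPM in Hbs1l-/- and 42.5, 118 and 69.2 CPM in wild type (log2 fold change 1.16 ± 0.42 SE, adjusted p = 0.168), and the groups overlapped. Of the 11 genes under the filter, Prl, Prl3a1 and Prl8a8 had 0 fragments in all embryo libraries. Prl6a1 had 1.92, 0.230 and 83.1 CPM in Hbs1l-/- and 0, 0 and 0.682 CPM in wild type. Prl7c1 had 5, 0 and 71 fragments in Hbs1l-/- and none in wild type, and Prl2b1 had 4, 1 and 12 fragments against none. Prl3d3 had 22, 2 and 6 fragments against none. Prl3c1 and Prl8a1 stayed below 3 CPM in every embryo library, Prl7b1 had 1 fragment in Hbs1l-/- and 4 in wild type, and Prl8a6 had 3 fragments, all in Hbs1l-/- replicate 3.

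Receptor and signalling genes downstream of these hormones were compared next. The prolactin receptor Prlr had 4.93, 4.82 and 7.78 CPM in Hbs1l-/- and 3.42, 3.44 and 3.75 CPM in wild type; the groups did not overlap, but the difference did not pass the edgeR test (log2 fold change 0.71 ± 0.42 SE, adjusted p = 0.377). Among 15 tested genes of the receptor pathway (18 in the list, with Jak2, Stat5a, Stat5b and the Socs inhibitors), edgeR called 0, 1 had an unadjusted p under 0.05 and DESeq2 called 0. Their median log2 fold change was -0.01, as against 0.01 over all genes tested. Over all 11416 genes tested, 2121 had an unadjusted p under 0.05 and DESeq2 called 417, against which the counts of each list are to be read. Of 27 tested regulators of trophoblast giant cells (30 in the list), 11 had an unadjusted p under 0.05, DESeq2 called 2, and edgeR called 1: Bhlhe40, a transcription factor of the hypoxia response, with 12.6, 3.68 and 18.7 CPM against 2.66, 2.21 and 1.02 CPM (log2 fold change 2.53 ± 0.57 SE, adjusted p = 0.0418 in edgeR). This call was lost without Hbs1l-/- replicate 3 (adjusted p = 0.103) or any 1 wild-type library (0.142 to 0.244). Bhlhe40, with 7, 9 and 3 wild-type fragments, passed the filter through the Hbs1l-/- libraries, where it is high, so nothing is read from the call.

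Marker genes of the tissues that an embryo dissection can hold were compared in the same fit, and part of the trophoblast list was higher where the members were. Of 24 tested trophoblast markers (42 in the list, prolactin genes left out), 10 rose and 0 fell in Hbs1l-/- embryos in edgeR. Over all 11416 genes tested, 1.87% were called. The markers had a median log2 fold change of 1.48, while 18 had an unadjusted p under 0.05 and DESeq2 called 12. The count called was 5 without Hbs1l-/- replicate 3, and 2, 1 and 1 without wild-type replicates 1, 2 and 3. Their summed level was 3051, 2548 and 5058 CPM in Hbs1l-/- and 2312, 1971 and 2141 CPM in wild type. Adm, the vasodilator peptide adrenomedullin of giant cells, had 228, 128 and 341 CPM against 8.73, 15.7 and 10.6 CPM (log2 fold change 4.28 ± 0.32 SE, adjusted p = 8.44e-06), close to the even pattern. Ceacam9, Cts7 and Lgals9 rose with most of their signal in replicate 3: Ceacam9 had 25.6, 5.51 and 505 CPM against 1.97 to 5.31 CPM, Cts7 13.97, 10.1 and 74.6 CPM against 1.72 to 4.09 CPM, and Lgals9 35.3, 11.0 and 111 CPM against 3.44 to 6.45 CPM (adjusted p = 0.0434, 0.0254 and 0.0206 in edgeR). These calls, unlike that of Adm, were lost without any 1 wild-type library (adjusted p from 0.092 to 0.247), and that of Ceacam9 also without Hbs1l-/- replicate 3 (0.0804). Ceacam9 and Cts7 passed the filter through the Hbs1l-/- libraries, where they are high. The count called and the median of the trophoblast list include such genes, so they are given as values and not as support. Tpbpa, the marker of ectoplacental cone and spongiotrophoblast, was looked up after the 2 patterns had been seen, and had 2.88, 0.459 and 82.8 CPM in Hbs1l-/- and 0, 0.246 and 0 CPM in wild type. It thus shared the replicate 3 pattern of Prl4a1, Prl2a1 and Prl7d1. Another 10 trophoblast markers, among them Tpbpb and Ctsq of the later placenta, had 0 fragments in all 6 libraries. How much trophoblast tissue each pool held is not given in the sources used here, and its part in the members' levels was not tested.

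Decidual markers did not pass the test: edgeR called 0 of 15 tested (27 in the list) while 3 had an unadjusted p under 0.05 and DESeq2 called 1, and their sum without prolactin genes was 1400, 1211 and 1294 CPM in Hbs1l-/- against 1122, 1209 and 1120 CPM in wild type. Of 16 parietal endoderm markers, 1 rose (Thbd, thrombomodulin, log2 fold change 1.72 ± 0.29 SE, adjusted p = 0.00928, but 0.0750 and 0.106 without wild-type replicates 1 and 2), and edgeR called 0 of 22 visceral endoderm markers, of which 8 had an unadjusted p under 0.05 and DESeq2 called 0. In the other direction, 6 of 17 primitive erythroid markers and 4 of 23 markers of the embryo proper fell in edgeR, where 1.87% of all genes were called. DESeq2 called 8 and 4 of them, and 13 and 10 had an unadjusted p under 0.05. These counts were 3 each without wild-type replicate 1, 2 or 3 for the erythroid list, and 1, 0 and 1 for the embryo proper. The embryonic globin Hbb-y had 144, 247 and 205 CPM in Hbs1l-/- against 1640 to 2488 CPM in wild type (log2 fold change -3.27 ± 0.23 SE, adjusted p = 5.83e-06), and cardiac actin Actc1 361 to 624 CPM against 1042 to 1103 CPM (adjusted p = 0.00723, and 0.0510 to 0.0720 without any 1 wild-type library). The erythroid sum was 4471, 8133 and 3217 CPM in Hbs1l-/- and 12968, 13892 and 16897 CPM in wild type, with every Hbs1l-/- library below every wild-type library. Adult blood markers summed to 10.6 to 22.9 CPM in all 6 libraries. The part of tissue makeup in any member's difference was not tested.

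**Figure D4:**
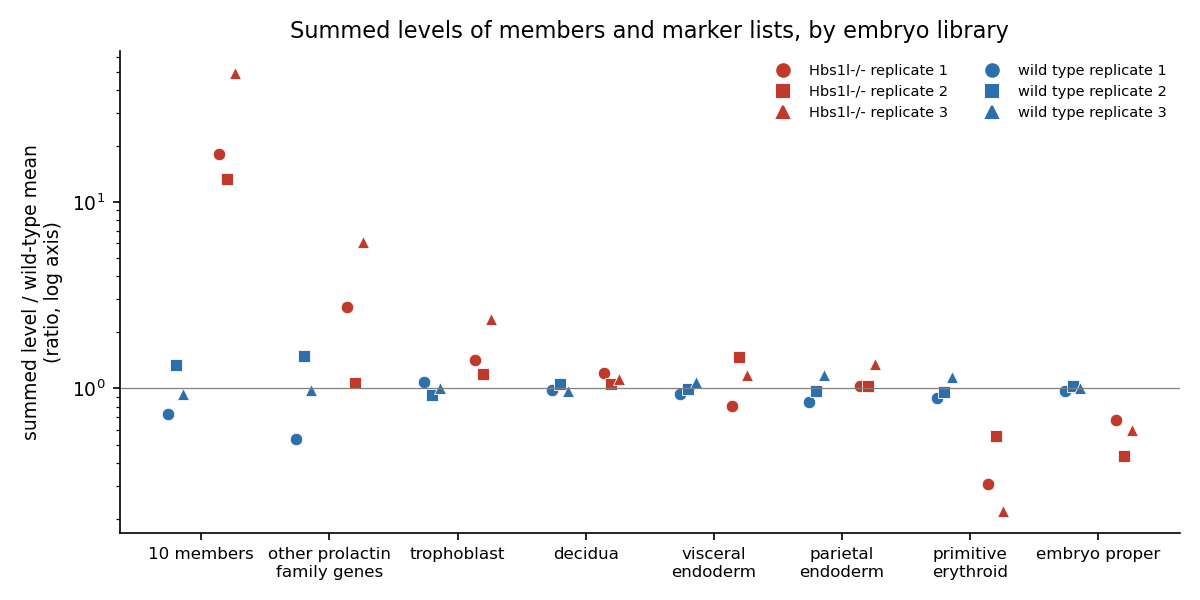
Summed level of the 10 members, of the other 15 family genes and of 6 marker lists in each embryo library, as a ratio to the wild-type mean of that list (log axis); red is Hbs1l-/-, blue is wild type, and symbols mark the replicate. In Hbs1l-/- libraries the members lie at 13.3 to 49.3 times the wild-type mean, the trophoblast list at 1.19 to 2.36 times, and the erythroid and embryo proper lists below it.

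Genes whose level over the 6 embryo libraries was most like the summed members were sought among 10464 non-member genes with a mean of at least 5 CPM, by Pearson's r of log2(CPM + 1). They were Actl6a (r = 0.999), Adm (0.995), Cyp17a1 (0.993), Strn (0.990) and H13 (0.989). All points share the same 6 libraries in 2 groups, so these values only describe them. Adm and Cyp17a1, a steroid hydroxylase that giant cells express, differed strongly between genotypes, the latter at 13.4 ± 4.62 against 2.29 ± 0.0877 CPM (SD, n = 3 each). Actl6a, a chromatin remodelling subunit, differed little, at 287 ± 11.8 against 237 ± 6.21 CPM.

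Outside the embryo the members were close to absent. Their sum was at most 0.940 CPM in the 6 cerebellum libraries and at most 2.75 CPM in the 18 fibroblast libraries, as against 17.5 CPM in the lowest embryo library. In cerebellum 5 of the 10 members had no fragment and 9 had at most 3 in any library. Prl2c3 was the exception, with 0, 0.458 and 0.443 CPM in the cKO (0, 5 and 10 fragments) and 0.470, 0.633 and 0.667 CPM in controls (6, 14 and 15 fragments). It was the 1 member that passed the filter there, through the controls, where it is higher, so nothing is read from its test. The difference did not pass that test (log2 fold change -1.17 ± 0.78 SE, adjusted p = 0.566, where 0.0624% of 14430 genes tested were called). Prl2c2, its near copy, had at most 3 fragments in any cerebellum library. Hbs1l was lower in the cKO cerebella, at 13.2 to 15.8 CPM against 35.5 to 43.8 CPM.

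Fibroblasts served as the reference without placental tissue, and libraries labelled with 3 knockouts could be set side by side. The targeted gene was lower in Hbs1l-/- cells (1.51 to 2.58 against 32.5 to 38.0 CPM) and in Pelo-/- cells (2.03 to 2.93 against 31.7 to 37.1 CPM). In the libraries labelled Upf2-/-, Upf2 itself was higher, at 114 to 118 against 47.0 to 57.8 CPM in footprints and 8.61 to 20.6 against 3.82 to 5.63 TPM (a share of all transcripts that allows for their length) in RNA; the count covers the whole coding sequence and not the deleted exons alone. Control libraries with the same number in different batches differed by little more than sampling noise (mean chi-square per gene 1.10 to 1.19 in 9 pairs, against 4.06 to 12.6 in 27 pairs with different numbers). The 3 fibroblast comparisons are therefore treated here as sharing control cultures, and they are not independent of each other.

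Prl8a9, the weakest member with any fragments in embryos, was the best covered in fibroblasts. It was lower in Hbs1l-/- cells, in Pelo-/- cells and in the libraries labelled Upf2-/-. Controls of the Hbs1l batch had 1.12, 1.69 and 1.07 CPM (13, 23 and 12 fragments), and Hbs1l-/- cells had 0.139, 0.844 and 0.0888 CPM (2, 5 and 1 fragments). The groups did not overlap, and the difference passed the test (log2 fold change -2.30 ± 0.61 SE, adjusted p = 0.00971), in a comparison in which 34.1% of 11984 genes were called. Prl8a9, the 1 member tested there, passed the low-count filter through the controls, where it is high, so the call is given as a value and not as support. Without the filter the edgeR adjusted p was 0.00509. Without Hbs1l-/- replicate 1 the adjusted p was 0.0747, and over the alternatives that could be run it ranged from 0.00261 to 0.0747. With each library left out in turn the log2 fold change ranged from -3.39 to -1.85.
In Pelo-/- cells Prl8a9 had 2, 4 and 4 fragments (0.119, 0.239 and 0.156 CPM) against 16, 29 and 6 in the controls (1.40, 2.28 and 0.533 CPM). Libraries labelled Upf2-/- had 0, 3 and 1 fragments (0, 0.271 and 0.137 CPM) against 18, 34 and 8 (1.25, 2.18 and 0.560 CPM). In both comparisons, every library labelled as a knockout was below every control library. The pooled ratios were 0.117 (95% counting interval 0.0531 to 0.234) and 0.122 (0.0323 to 0.330). Prl8a9 did not pass the low-count filter in these comparisons, in which 44.1% of 12486 and 43.4% of 12166 genes were called, and was not tested. In embryos the same gene had more fragments in Hbs1l-/- than in wild type, with overlapping groups.

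**Figure D5:**
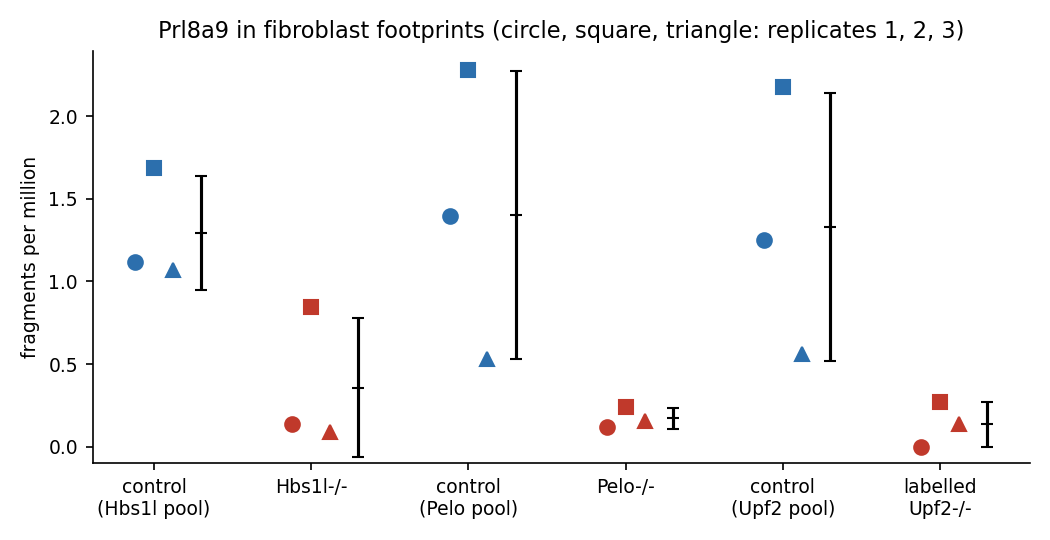
Prl8a9 in CPM in the fibroblast footprint libraries, by group; circle, square and triangle are replicates 1, 2 and 3, and the bars beside them are the mean ± SD (n = 3). All libraries labelled as knockouts lie at or below 0.844 CPM and, within each batch, below all controls, which lie between 0.533 and 2.28 CPM.

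In the RNA of fibroblasts Prl8a9 lay below all controls in Hbs1l-/-, where it was not tested. It overlapped them in Pelo-/- and in the libraries labelled Upf2-/-. Control RNA libraries had 0.877, 0.220 and 0.284 TPM, Hbs1l-/- libraries 0.0695, 0.0816 and 0.113 TPM, Pelo-/- libraries 0.689 and 0.831 TPM, and libraries labelled Upf2-/- 1.12, 0.258 and 0.250 TPM. Prl8a9 passed the filter in the Pelo comparison alone, where its log2 fold change of 0.65 ± 0.69 SE did not pass the test (adjusted p = 0.503; 32.1% of 14713 genes were called). With at most 21 estimated reads in any library, differences smaller than these spreads were not detectable. Every other member stayed at or below 0.706 TPM in all 11 RNA libraries, and Prl3b1 and Prl4a1 were listed at 0 in all of them.

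Prl3a1, a family gene that is no member and had no fragments in embryos or cerebellum, was the best covered prolactin family gene of fibroblasts. In footprints it fell in Hbs1l-/- (2.54 ± 0.461 against 5.16 ± 1.51 CPM, log2 fold change -1.10 ± 0.27 SE, adjusted p = 0.00666), in Pelo-/- (log2 fold change -1.32 ± 0.29 SE, adjusted p = 0.00405) and in libraries labelled Upf2-/- (log2 fold change -1.67 ± 0.25 SE, adjusted p = 0.000271). Its RNA fell too, by 1.29 (Hbs1l, adjusted p = 0.0388, where 23.1% of 15257 genes were called), by 1.99 (Pelo, adjusted p = 0.0121) and by 1.40 on the log2 scale (Upf2, adjusted p = 0.0418, where 20.1% of 15918 genes were called). In the Pelo comparison Prl3a1 had 7 and 4 estimated reads against 25, 18 and 62 in controls. It passed the low-count filter there through the controls, where it is high, so that call is given as a value and not as support. Leaving out 1 library kept each footprint call, with adjusted p at most 0.0467, but not the RNA calls. Without 1 library the adjusted p of the RNA reached 0.0986 for Hbs1l (lost without any 1 library), 0.0979 for Pelo (lost without either Pelo library) and 0.150 for Upf2 (lost without any 1 library but Upf2 replicate 1). With a replicate block the adjusted p for Hbs1l RNA was 0.0532. The RNA values share the same 3 control libraries.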

How the data were processed

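Footprints were measured in 30 libraries and RNA in 11. The authors clipped and trimmed the reads, removed rRNA, tRNA and snoRNA with Bowtie2 2.2.3, aligned the rest to mm10 with HISAT2 2.1.0 and deposited counts of fragments per gene over coding sequences by featureCounts; how reads that fit several genes were counted is not given in the sources used here. A wider range of fragment sizes was purified for embryos and fibroblasts than for cerebellum. The deposited RNA tables give kallisto 0.42.4 estimated counts and TPM of transcripts; both were summed to genes, and the estimated counts were rounded for testing. Genes for histones were dropped from the footprint and the RNA fits, a step that the authors state for their footprint analysis. Levels are CPM over all coding fragments, with SD over replicates. Tests were edgeR 4.0.16 quasi-likelihood fits (TMM factors, filterByExpr) of 1 knockout against its own controls over all genes, with Benjamini-Hochberg adjustment and a threshold of 0.05. DESeq2 1.42.0, other factors, no filter, a replicate block, kept histone genes and leaving out each library were alternatives. The embryo fit was also run on simulated counts with the same spread for every gene. Members and markers here were far more uneven between Hbs1l-/- libraries, so nothing is read from that run.

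The members and gene lists were chosen with earlier results of these data known, and the members' embryo fits are not reported. Genes named from other lists were the up to 4 called genes with the largest change at a mean of at least 5 CPM. A replicate is a pool of embryos, a cerebellum or a culture. Intervals are exact conditional intervals on pooled counts at 95%. A count of 0 allows up to 3 fragments. RNA libraries held 22713643 to 86425762 estimated reads, and footprint libraries 2634480 to 25607974 fragments. Per the series' design text a Pelo RNA library was excluded as an outlier by the authors, and it was not used here.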

Additional observations from a re-analysis of the deposited data

Results flagged for a closer look

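In E8.5 embryos every Hbs1l-/- library was above every wild-type library for Prl2c3, whereas in P14 cerebellum every cKO library was below every control library, with a ratio of mean CPM of 0.509. The cerebellum difference did not pass the edgeR test (log2 fold change -1.17 ± 0.78 SE, adjusted p = 0.566). Prl2c3 passed the low-count filter there through the controls, where it is higher, so nothing is read from that test. The difference rests on 0, 5 and 10 fragments in the cKO and 6, 14 and 15 in controls. Its pooled ratio was 0.452, with a 95% interval of 0.229 to 0.849 that covers counting error only and not the spread between mice. Hbs1l footprints were reduced in the cKO cerebella and not lost. The difference between the tissues was not tested.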

How the results depend on the processing

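The members were chosen by their levels in these embryo libraries, so the direction of their sum is fixed by that choice and is no sign of stability. The summed level of Hbs1l-/- embryos was 671 CPM with TMM scaling, 674 with RLE scaling, 675 without histone and mitochondrial genes in the library total, and 377 to 809 with each library left out. The count of members whose groups did not overlap was 7 or 8 with each library left out, an alternative chosen after seeing the data. The count of 3 other family genes called was 7 without the low-count filter and 1 to 3 with a library left out, at 1 without any wild-type library. DESeq2 did not call Prl2c5 (adjusted p = 0.0576).

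Counts over all genes depended on the setting, and the cause was not tested. In embryos the 214 calls became 703 without the filter, 417 with DESeq2 and 564 with a replicate block. They ranged from 28 to 2309 with a library left out: 2309, 119 and 107 without Hbs1l-/- replicates 1, 2 and 3, and 45, 28 and 46 without wild-type replicates 1, 2 and 3. In cerebellum the 9 calls became 16 without the filter, 482 with DESeq2, 67 with histone genes kept and 0 in edgeR with a replicate block (2090 genes at an unadjusted p under 0.05). With a library left out they ranged from 0 to 560, at 88 without cKO replicate 2, 560 without control replicate 3 and 0 otherwise (1129 to 1328 genes at an unadjusted p under 0.05). In fibroblast RNA the calls with a library left out ranged from 1820 to 2679 (Hbs1l), 1537 to 4840 (Pelo) and 1827 to 3246 (Upf2). They were 1820 and 2217 without control replicate 2 and Hbs1l replicate 2, 1771 and 1537 without Pelo replicates 1 and 2, and 2007, 1827 and 1873 without Upf2 replicate 2 and control replicates 2 and 3. The Pelo RNA count was 2999 with a replicate block. Marker counts under the alternatives were chosen after seeing the data. Without the filter 19 trophoblast and 12 erythroid markers were called, and with a replicate block 11 erythroid markers. With a library left out the counts ranged from 1 to 15 (trophoblast), 3 to 11 (erythroid) and 0 to 12 (embryo proper), the 11 and 12 being those without Hbs1l-/- replicate 1. Replicate numbers were not treated as pairing the samples, as in no comparison did all same-numbered libraries deviate together with r above 0.1. With so few libraries per group this check cannot exclude pairing. The block ended the call of Prl3a1 in Hbs1l RNA (adjusted p = 0.0532 in edgeR) but of no other named family gene. Prl8a2 was called without the filter (adjusted p = 0.00371).

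At 2634480 to 7298812 fragments per embryo library, levels near 1 CPM rest on a few fragments, which touches Prl8a9, Prl7d1 and the wild-type values of every member but Prl7a1 (at most 25 fragments over 3 libraries). The split of counts between Prl2c2, Prl2c3 and Prl3d1 and their near copies was not tested.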
